A study of Homo sapiens with 12 samples.

Results

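The genes of oxidative phosphorylation were followed in MOLM13 cells after CRISPR-Cas9 targeting of YBX1. Members were the protein-coding genes with a mean level of at least 4 over all libraries whose symbol begins with MT- or with the prefixes of complex I subunits and assembly factors (NDUFA, NDUFB, NDUFC, NDUFS, NDUFV), complex III (UQCR), complex IV (COX4I, COX5, COX6, COX7, COX8) or ATP synthase (ATP5F1, ATP5M, ATP5P), or is CYC1 or CYCS. Of the 10982 genes tested, 97 were members, 84 of them nuclear and 13 encoded by mitochondrial DNA, and a further 12 genes fit the names but lay under that level. All values are regularised log2 values (rlog), a log2 scale on which weakly expressed genes are drawn towards their own mean, so that their fold changes come out smaller.

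MOLM13 is a human acute myeloid leukaemia line, and YBX1 encodes an mRNA-binding protein with a cold-shock domain. All cells carried a lentiviral Cas9 under blasticidin selection and a puromycin and RFP vector, were sorted for high RFP and were harvested on day 7 after transduction. The groups were sgRNA1 and sgRNA2, which are different guides against YBX1, and control, which is an empty vector by its title but a vector with a non-targeting guide by its other label, with 4 libraries each that bear the replicate numbers 1 to 4. Bulk poly(A)-selected RNA was sequenced, so that fewer transcripts per cell and fewer cells expressing a gene cannot be told apart. The labels do not say that the libraries of a group came from separate cultures, and p-values therefore measure only the spread between these libraries. By either label the control lacks a guide that cuts the genome, so that an effect of Cas9 cutting cannot be told apart from an effect of YBX1 loss.

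In oxidative phosphorylation, complexes I, III and IV pass electrons to oxygen and pump protons out of the mitochondrial matrix, with ubiquinone and cytochrome c as mobile carriers, and complex V (ATP synthase) uses the returning protons to make ATP. Most subunits are encoded in the nucleus and imported, while a small set of hydrophobic core subunits is encoded by mitochondrial DNA. Acute myeloid leukaemia cells are known for their reliance on this pathway.

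YBX1 mRNA itself lay at 11.08 to 11.38 in the sgRNA1 libraries and at 11.83 to 12.07 in the sgRNA2 libraries, against 12.76 to 12.96 in the control libraries, lower in every guide library than in every control library. Of 8 myeloid marker genes, 8 had a mean level of at least 4, with means from 4.04, just above that limit, to 12.32. Of 12 markers of other cell types, 3 also reached that level, and KRT8 and PECAM1 had the highest means, at 6.63 and 9.41. Libraries of the same number in different groups deviated together over all genes, with correlations of 0.38 to 0.78 over the 12 such pairs. The replicate number was therefore also fitted as a block, and blocked values stand beside results that they change. The library sgRNA2 number 3 departed from this pattern. Over all genes it correlated at 0.53 with sgRNA1 number 3 and at 0.38 with control number 3, but at 0.73 with sgRNA1 number 4 and at 0.75 with control number 4, so that it resembled the libraries of another number more than those of its own.

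The nuclear genes of oxidative phosphorylation changed little after YBX1 targeting. Both guides together moved them by a median log2 fold change of -0.0029, against -0.0059 over all genes tested. A positive value was found in 39 of 84 (46.4%), the same share as over all genes (46.4%). Single values ran between -0.17 for ATP5F1A and 0.081 for NDUFA13. No member passed an adjusted p of 0.05 in limma without the block, where 0.1% of all genes did, and 2 nuclear members and 0 mitochondrially encoded members had an unadjusted p under 0.05, against 7.48% of all genes. With the replicate number as a block, 2 of 84 nuclear members fell, ATP5F1A and COX7A2L, and none rose. In that fit 2.87% of all genes fell, and 278 of 10982 rose.

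**Figure D1:**
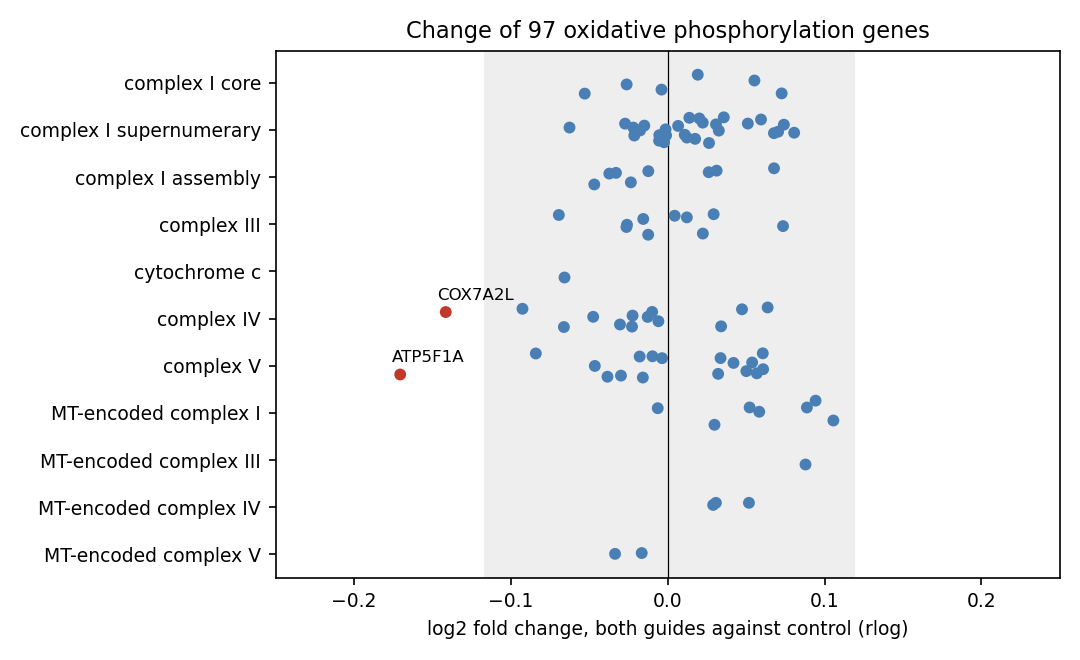
Log2 fold change of each of the 97 genes for both guides together against control (horizontal axis, rlog scale), with 1 point per gene in rows by complex and red points for genes called with the replicate block. Vertical scatter within a row separates points only. The grey band holds the middle of all genes tested, between the percentiles 5 (-0.12) and 95 (0.12), and ATP5F1A and COX7A2L lie outside it.

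ATP5F1A, the alpha subunit of the catalytic head of ATP synthase, showed the largest decrease of the 97 members. Its level was 12.93, 13.06, 12.90 and 13.01 in the sgRNA1 libraries 1 to 4 and 13.01, 13.06, 13.04 and 13.02 in the sgRNA2 libraries, against 13.17, 13.14, 13.15 and 13.24 in the control libraries. All 8 guide libraries lay below all 4 control libraries, as they did for 0.792% of all genes. The log2 fold change for both guides was -0.17 (SE 0.045, adjusted p = 0.24) without the block and had an SE of 0.037 and an adjusted p of 0.012 with it. For sgRNA1 alone the change was -0.20 (blocked adjusted p = 0.010) and for sgRNA2 alone -0.14 (blocked adjusted p = 0.055, not called). The blocked call of both guides was lost without control number 1 or without control number 3, and also when numbers 3 and 4 were fitted alone, with the highest adjusted p at 0.19.

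COX7A2L encodes a factor that joins complexes III and IV in supercomplexes. It stood at 10.16, 10.30, 10.17 and 10.32 in the sgRNA1 libraries and at 10.27, 10.28, 10.37 and 10.34 in the sgRNA2 libraries, against 10.42, 10.33, 10.40 and 10.52 in the control libraries. All 8 guide libraries lay below the control library of their own number, although the groups overlapped through control number 2. The share of all genes with all 8 below in this way is not given here. The log2 fold change for both guides was -0.14 (SE 0.049, adjusted p = 0.46) without the block, and with it the SE was 0.040 and the adjusted p 0.044. It was -0.18 for sgRNA1 (blocked adjusted p = 0.027) and -0.10 for sgRNA2 (blocked adjusted p = 0.19). Of 19 alternative settings of the blocked fit, 4 kept the call of COX7A2L, with adjusted p between 0.0032 and 0.35.

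**Figure D2:**
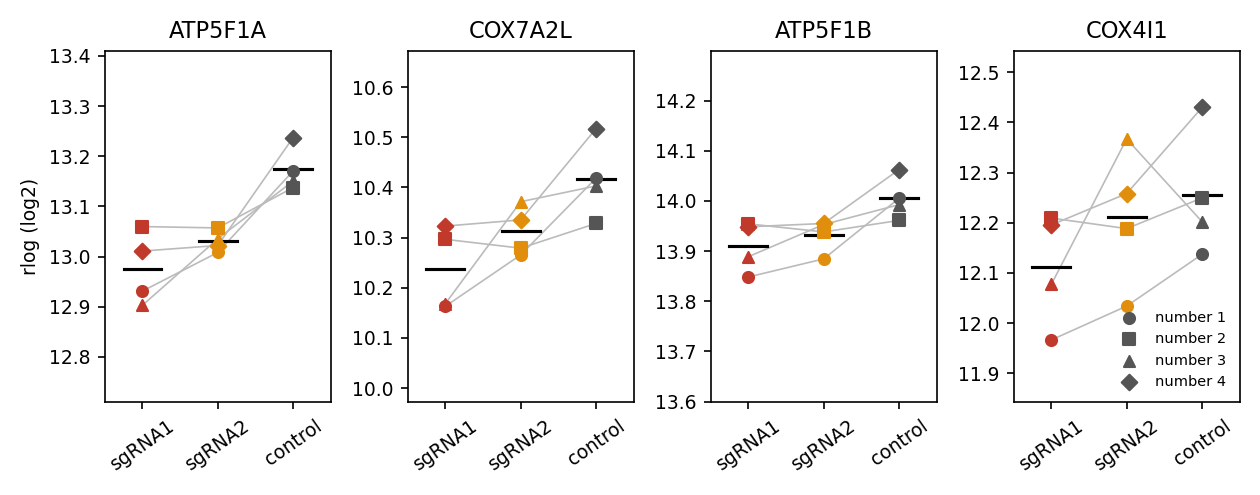
Level (rlog, log2) of ATP5F1A, COX7A2L, ATP5F1B and COX4I1 in each library of sgRNA1, sgRNA2 and control, with marker shapes for the replicate numbers, grey lines joining libraries of the same number and black bars at the group means (n = 4 each). The vertical axes start above 0. In ATP5F1A and ATP5F1B every guide library lies below every control library, in ATP5F1B by a narrow gap (13.955 against 13.961).

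ATP5F1B, the catalytic beta subunit that pairs with the alpha subunit in the head of ATP synthase, was the other member with no overlap. It stood at 13.85 to 13.95 in sgRNA1 and at 13.88 to 13.955 in sgRNA2, against 13.961 to 14.06 in control. The gap between the guide and control libraries was thus narrow, and 0.792% of all genes showed no overlap in this direction. Its log2 fold change of -0.084 did not pass in either fit (blocked adjusted p = 0.19). COX4I1, a nuclear subunit of complex IV that takes part in its assembly and regulation, stood at 11.97, 12.21, 12.08 and 12.20 in sgRNA1 and at 12.03, 12.19, 12.37 and 12.26 in sgRNA2, against 12.14, 12.25, 12.20 and 12.43 in control. Its change of -0.093 was not called (blocked adjusted p = 0.28), and its groups overlapped. No nuclear member had all guide libraries above all control libraries, a pattern found in only 46 of the 10982 genes tested.

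The ATP5F1A gene lies on the reverse strand of chromosome 18 between 46080248 and 46104334 (GRCh38, GENCODE 29) and COX7A2L on the reverse strand of chromosome 2 between 42333546 and 42425088. The promoter of ATP5F1A, the member with the largest decrease, is shown because promoters of this pathway are known to carry sites of NRF1 and of ETS factors. It covers chr18:46098247-46098546 on the reverse strand (RefSeq, GRCh38.p14), 250 bases before to 50 bases after 1 of its 2 listed starts. Capitals mark the single ETS match on the opposite strand. This window was picked because it held a match. The window at the other listed start held none of the NRF1, ETS and YY1 motifs that were searched.

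ATP5F1A promoter: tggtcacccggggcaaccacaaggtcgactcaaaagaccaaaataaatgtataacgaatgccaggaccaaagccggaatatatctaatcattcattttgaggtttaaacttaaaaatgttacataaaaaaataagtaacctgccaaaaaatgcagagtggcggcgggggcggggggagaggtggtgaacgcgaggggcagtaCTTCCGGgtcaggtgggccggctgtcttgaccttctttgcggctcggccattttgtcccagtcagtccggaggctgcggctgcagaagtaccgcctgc

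Promoters of 69 of the 84 nuclear members could be matched. The NRF1 motif GCGCANGCG, searched on both strands, was in 22 of them (31.9%), against 18.0% of the 8811 tested genes with a promoter. The ETS motif CCGGAAG was in 21 (30.4%, against 24.2%) and the YY1 motif AAGATGGCG in 8 (11.6%, against 5.14%). At least 1 of the 3 motifs was in 42 of the 69 (60.9%, against 40.6%), and matches of different motifs may overlap. These shares describe letters in the window and were not tested.

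By complex, the medians for both guides lay close to 0. Over all genes tested 46.4% of values were positive. The 6 nuclear core subunits of complex I, which carry its redox centres, had a median of 0.0076, from -0.053 for NDUFS1 to 0.073 for NDUFS8. The 29 supernumerary subunits of complex I, which surround that core, had a median of 0.012 with 17 positive values, and the 8 NDUFAF assembly factors had a median of -0.018. The 10 genes of complex III, CYC1 among them, had a median of -0.0040. The 13 genes placed with complex IV, counting COX7A2L, NDUFA4 and NDUFA4L2, had a median of -0.022 and 3 positive values, COX8A, NDUFA4L2 and NDUFA4. Their median was -0.042 for sgRNA1 alone and -0.0023 for sgRNA2 alone. The 17 subunits of complex V had a median of -0.0036 with 8 positive values. None of these classes held a called gene without the block, and with it complexes IV and V held 1 each.

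None of the largest positive values was called. NDUFA13, a supernumerary subunit of complex I, had 5.51, 5.60, 5.71 and 5.61 in sgRNA1 and 5.67, 5.75, 5.55 and 5.60 in sgRNA2, against 5.52, 5.46, 5.62 and 5.58 in control, for a log2 fold change of 0.081 (blocked adjusted p = 0.35). NDUFB1, another supernumerary subunit, stood at 8.56 to 8.64 in sgRNA1 and at 8.50 to 8.65 in sgRNA2, against 8.43 to 8.66 in control (0.074, blocked adjusted p = 0.37). Groups overlapped for both. UQCR10, a small subunit of complex III, had a change of 0.074 (blocked adjusted p = 0.28) and NDUFS8, an iron-sulphur subunit of complex I, one of 0.073 (0.35). ATP5F1E, the epsilon subunit of ATP synthase, had 0.061 (0.36). At the negative end UQCRC2, a core protein of complex III, had -0.069 (0.27).

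Complex IV has subunits with tissue-specific isoforms, and the libraries held the widely expressed member of each pair. Mean levels were 12.19 for COX4I1, 7.59 for COX6A1, 11.20 for COX6B1, 10.99 for COX7A2 and 8.92 for COX8A. COX7A1, known from muscle, was at 2.64, and COX4I2, COX6A2 (of muscle) and COX7B2 were listed at 0 in every library. COX6B2 and COX8C, known from testis, had means of -1.73 and -0.077. NDUFA4, a subunit of complex IV despite its name, had a mean of 10.16 and its hypoxia-induced relative NDUFA4L2 one of 5.68. None of the 8 expressed genes of this set other than COX7A2L changed in either fit, with log2 fold changes between -0.093 for COX4I1 and 0.064 for COX8A. NDUFA13 (5.60) and NDUFA4L2 were the members nearest above the level limit, and NDUFA7 (3.02) and NDUFV2 (2.91), both subunits of complex I, the genes nearest under it. Of the exon bases of NDUFA7 33.5% and of those of NDUFV2 28.4% are also exon of another annotated gene, and reads there may not have been counted for either. Some members with a larger share lay above the limit, such as NDUFS7 (49.1%) with a mean of 8.16. The part of overlap in these levels was not tested.

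No member was called between the guides. For sgRNA1 against control the nuclear median was -0.0088 and for sgRNA2 against control 0.012, with control libraries shared between these comparisons. No member was called without the block for either guide, where 0.0455% of all genes were called for sgRNA1 and 0.0364% for sgRNA2. Unadjusted p under 0.05 in limma was reached by 2 nuclear members for sgRNA1 and by 1 for sgRNA2, and by 0 mitochondrially encoded members, against 5.50% of all genes for sgRNA1 and 5.35% for sgRNA2. With the block, ATP5F1A and COX7A2L fell with sgRNA1, against 1.83% of all genes. No member was called for sgRNA2, against 3.95% of all genes in either direction. An unadjusted p under 0.05 in that blocked limma fit was reached by 3 of 84 nuclear members (3.57%), against 19.1% of all genes. It was reached by 6 of the 13 mitochondrially encoded members (46.2%), which moved together over the libraries and are not separate observations. In the direct comparison of sgRNA2 with sgRNA1 no member was called and 0.00911% of all genes were, in each fit. The nuclear median of that difference was 0.032 with 65 of 84 values positive (77.4%), against a median of 0.0018 and 51.4% positive over all genes. The nuclear means of sgRNA1 and sgRNA2 were 9.52 and 9.62 in number 3, where sgRNA2 departed from its number. They were 9.51 and 9.53 in number 1, 9.62 and 9.61 in number 2, and 9.60 and 9.58 in number 4. The 423 tested nuclear genes of 600 to 1000 bases had median deviations in number 3 of -0.036 in sgRNA1 and 0.072 in sgRNA2. The source of the difference was not tested. An unadjusted p under 0.05 in limma was reached by 0 members without the block, where 0.838% of all genes reached it. With the block 1 of 84 nuclear members (1.19%) and 3 of 13 mitochondrially encoded members (23.1%) reached it, against 6.83% of all genes. The 3 were MT-CO1, MT-CO2 and MT-CO3. MT-CO1 had the largest of these differences, at 0.15, with an unadjusted p of 0.0075 in the blocked limma fit.

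The 13 mitochondrially encoded genes showed no called change with YBX1 targeting. MT-ATP8 overlaps MT-ATP6 and MT-ND4L overlaps MT-ND4, so that their values may not be those of separate mRNAs. For both guides the median log2 fold change was 0.052, between -0.034 for MT-ATP6 and 0.11 for MT-ND3. Of the 13 values 10 were positive (76.9%), against 46.4% of all genes. These genes moved together over the libraries, so that their signs are not separate observations. With the block 0 were called and 2 had an unadjusted p under 0.05 in limma, MT-ND3 and MT-ND4L, with adjusted p of 0.16 and 0.21, while 20.1% of all genes had such a p in that fit. MT-ND3, a small subunit of complex I, stood at 12.64, 12.79, 12.51 and 12.52 in sgRNA1 and at 12.65, 12.79, 12.56 and 12.53 in sgRNA2, against 12.73, 12.69, 12.24 and 12.41 in control. The groups overlapped, and control numbers 3 and 4 were the lowest libraries. On quantile-scaled values all 13 were positive, with a median of 0.094, against -0.0024 over all genes. The blocked fit then called MT-ND3, MT-CYB and MT-CO2 as higher in the guide libraries. The shares of all genes positive or called on that scale are not given here. These 3 calls can therefore not be set against a background. On the deposited scale the blocked fit called 593 of 10982 genes and 0 of the 13, and that share does not hold for quantile-scaled values. For the 13 genes the median was 0.017 with sgRNA1 and 0.10 with sgRNA2 on the deposited scale.

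Levels of the mitochondrially encoded genes followed the replicate number more than the group. Their mean was 14.09, 14.23, 14.05 and 13.72 in the sgRNA1 libraries 1 to 4 and 14.19, 14.36, 13.86 and 13.88 in the sgRNA2 libraries, against 14.21, 14.16, 13.88 and 13.76 in the control libraries. Number 4 lay below number 1 in each of the 3 groups, and the groups overlapped fully. The mean of the 84 nuclear members stayed between 9.50 and 9.62 in every library, so that the difference between both sets ran between 4.12 and 4.74.

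**Figure D3:**
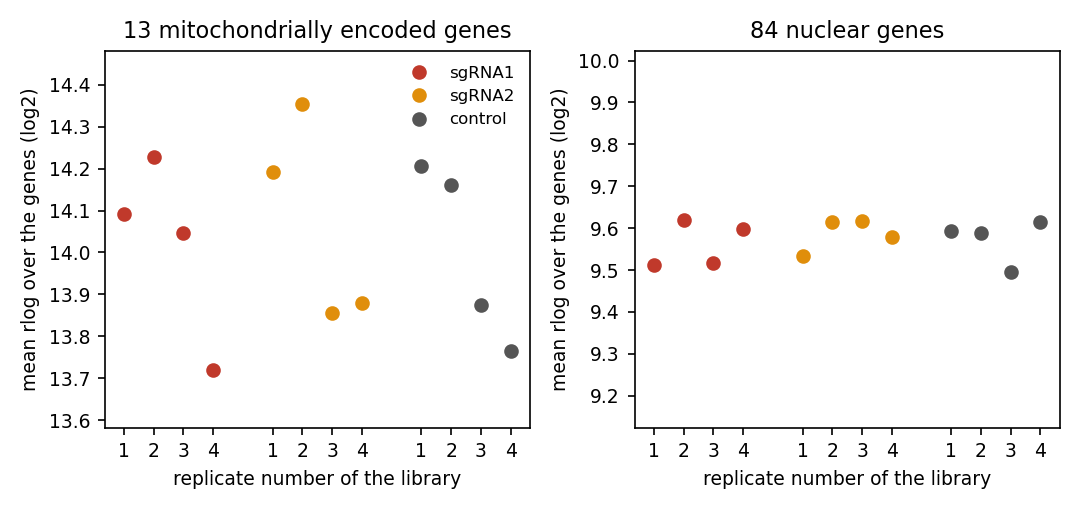
Mean level (rlog, log2) of the 13 mitochondrially encoded genes (left) and the 84 nuclear genes (right) in each library, by group and replicate number, 1 point per library. Both vertical axes span the same width and start above 0. The mitochondrially encoded mean runs between 13.72 and 14.36 and the nuclear mean between 9.50 and 9.62.

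An F-test of the replicate number with the group in the model called 12 of 13 mitochondrially encoded members (92.3%) and 41 of 84 nuclear members (48.8%), against 51.8% of all genes, so that the nuclear share was near the background. MT-CO1 was the exception among the 13. Number 4 lay below number 1 in all 3 groups for 13 of the 13 and for 14 nuclear members, against 35.3% of all genes. Both numbers 3 and 4 lay below both numbers 1 and 2 in all 3 groups for 10 of the 13 and for 7 nuclear members, against 15.9% of all genes. What a number stands for is not given in the sources used here.

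The largest such spread belonged to MT-ATP8, which encodes a small subunit of the membrane part of ATP synthase. It stood at 11.12, 11.41, 11.11 and 9.83 in sgRNA1 and at 11.19, 11.56, 10.08 and 10.12 in sgRNA2, against 11.22, 11.18, 10.90 and 9.98 in control. The number 4 libraries of all groups and sgRNA2 number 3 lay at 10.12 or lower, and the other libraries at 10.90 or higher. The means over numbers 1 to 4 were 11.18, 11.38, 10.70 and 9.98, a range of 1.40, while the log2 fold change for both guides was -0.017 (SE 0.33). The sign of that fold change turned in several settings without a call. MT-ATP8 is the shortest member, with 207 bases at chrM:8366-8572 on the forward strand (GRCh38, GENCODE 29), and it is shown because its last 46 bases, in capitals, are also the first of MT-ATP6, so that reads there cannot be assigned to 1 gene.

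MT-ATP8: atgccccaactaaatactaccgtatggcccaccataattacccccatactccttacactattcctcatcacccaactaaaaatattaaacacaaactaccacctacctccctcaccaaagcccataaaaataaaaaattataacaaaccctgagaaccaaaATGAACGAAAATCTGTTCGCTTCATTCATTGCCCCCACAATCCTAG

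MT-ND6, the only one of the 13 on the reverse strand and a membrane subunit of complex I, came next with a range of 0.70. Its level was 13.06, 13.28, 13.10 and 12.51 in sgRNA1 and 13.09, 13.32, 12.70 and 12.67 in sgRNA2, against 13.17, 13.24, 12.90 and 12.58 in control. With the strand setting of the counting not given, RNA of the opposite strand may be among the reads of MT-ND6. MT-ND5, a proton-pumping subunit of complex I, had 15.09, 15.29, 15.12 and 14.62 in sgRNA1 and 15.16, 15.38, 14.72 and 14.75 in sgRNA2, against 15.11, 15.25, 14.93 and 14.65 in control, a range of 0.63. In both genes the same 4 libraries as for MT-ATP8 were the lowest. MT-ATP6, the proton channel subunit of ATP synthase, had 14.59, 14.73, 14.57 and 14.16 in sgRNA1 and 14.79, 14.86, 14.32 and 14.37 in sgRNA2, against 14.86, 14.73, 14.45 and 14.29 in control, a range of 0.50. MT-CYB, the cytochrome b of complex III, had 14.39, 14.55, 14.33 and 14.04 in sgRNA1 and 14.52, 14.73, 14.17 and 14.19 in sgRNA2, against 14.46, 14.49, 14.11 and 14.05 in control, a range of 0.49.

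**Figure D4:**
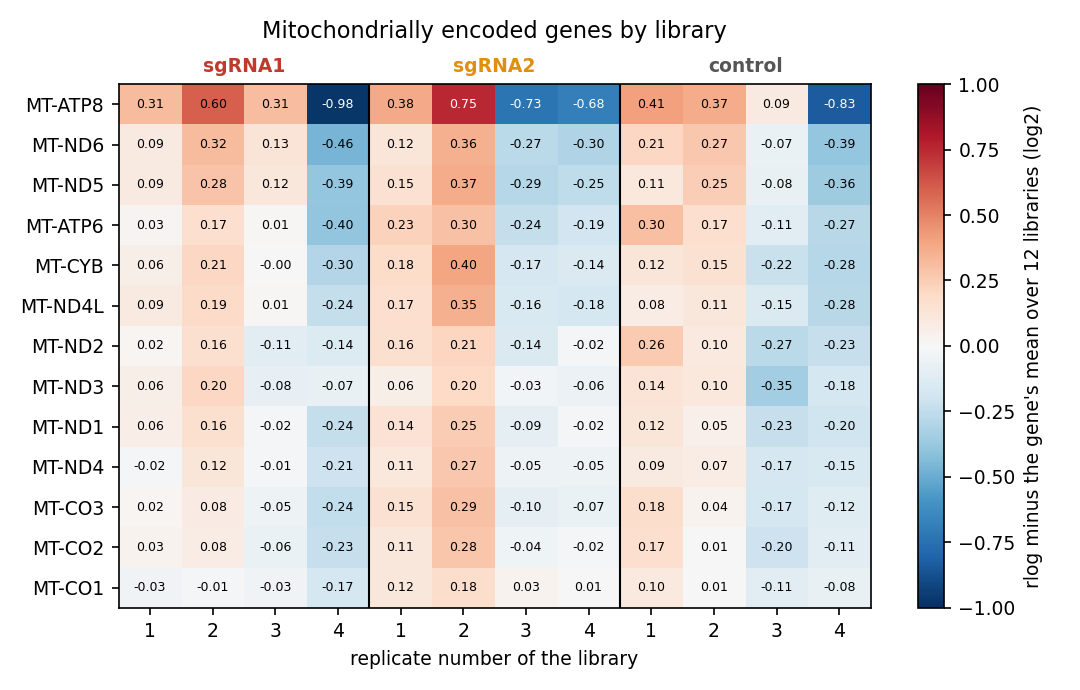
Level of each of the 13 mitochondrially encoded genes in each library as the difference from the gene's own mean over 12 libraries (rlog, log2; colour and printed value), with genes ordered by their range over the replicate numbers. Columns are the libraries 1 to 4 of sgRNA1, sgRNA2 and control. The number 4 libraries are at or below 0 in each gene except MT-CO1, where sgRNA2 number 4 is at 0.01.

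The remaining subunits of complex I had intermediate ranges. MT-ND4L stood at 11.998, 12.10, 11.92 and 11.67 in sgRNA1 and at 12.08, 12.26, 11.75 and 11.73 in sgRNA2, against 11.99, 12.02, 11.76 and 11.63 in control. MT-ND2 had 14.30, 14.43, 14.17 and 14.14 in sgRNA1 and 14.44, 14.49, 14.13 and 14.25 in sgRNA2, against 14.54, 14.38, 14.01 and 14.05 in control. Their ranges over the number means were 0.45 and 0.33. MT-ND1 had 15.00, 15.10, 14.92 and 14.70 in sgRNA1 and 15.08, 15.19, 14.85 and 14.92 in sgRNA2, against 15.06, 14.99, 14.71 and 14.75 in control. MT-ND4 had 15.44, 15.59, 15.45 and 15.25 in sgRNA1 and 15.57, 15.73, 15.41 and 15.42 in sgRNA2, against 15.55, 15.53, 15.29 and 15.31 in control. These are membrane subunits of complex I, and their ranges were 0.31 and 0.29.

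The 3 subunits of complex IV had the smallest ranges of the set. MT-CO1, which holds the site of oxygen reduction, stood at 15.95, 15.97, 15.95 and 15.81 in sgRNA1 and at 16.09, 16.16, 16.01 and 15.99 in sgRNA2, against 16.08, 15.99, 15.87 and 15.90 in control, a range of 0.14 (adjusted p for the number = 0.096). MT-CO2, which takes electrons from cytochrome c, had 14.68, 14.72, 14.58 and 14.42 in sgRNA1 and 14.76, 14.93, 14.60 and 14.63 in sgRNA2, against 14.82, 14.65, 14.44 and 14.54 in control. Its range was 0.24. MT-CO3 had 14.94, 15.01, 14.87 and 14.68 in sgRNA1 and 15.08, 15.21, 14.82 and 14.86 in sgRNA2, against 15.10, 14.96, 14.75 and 14.80 in control, a range of 0.28. The highest library of each of these genes was sgRNA2 number 2.

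Over the 13 genes the median range of the number means was 0.33, against 0.16 for the nuclear members and 0.17 for all genes, and 11.2% of all genes exceeded 0.33. Annotated transcript lengths of the mitochondrially encoded genes run between 207 and 1812 bases. The 13 genes had median deviations between -0.24 and 0.29 over the 12 libraries. The 60 tested nuclear genes under 600 bases had median deviations between -0.077 and 0.077, and the 8 members among them between -0.11 and 0.15, with the number 2 library highest in each group. The part of transcript length in the spread was not tested.

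**Figure D5:**
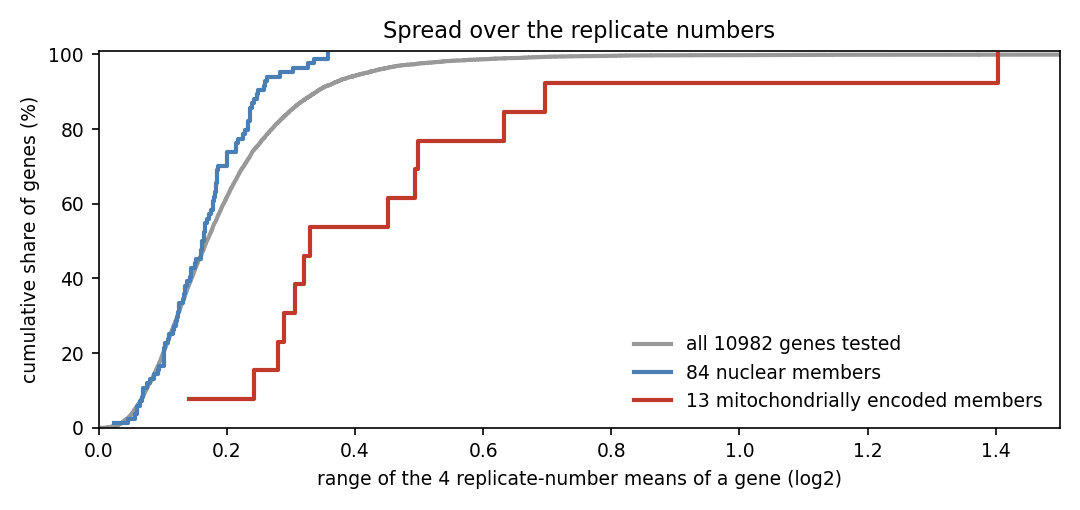
Cumulative share of genes (vertical axis, %) by the range of a gene's 4 replicate-number means (horizontal axis, log2) for all 10982 genes tested (grey), the 84 nuclear members (blue) and the 13 mitochondrially encoded members (red). The red line lies to the right of the others, with a median of 0.33 against 0.16 for the nuclear members and 0.17 for all genes.

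Among nuclear members the largest ranges over the replicate numbers were those of ATP5ME, CYCS and UQCRC2. ATP5ME, the e subunit of ATP synthase that acts in its dimer, stood at 6.49, 6.55, 6.46 and 6.17 in sgRNA1 and at 6.46, 6.69, 6.12 and 6.28 in sgRNA2, against 6.55, 6.53, 6.44 and 6.25 in control, a range of 0.36. CYCS, cytochrome c itself, had 11.34, 11.53, 11.16 and 11.26 in sgRNA1 and 11.36, 11.45, 11.15 and 11.21 in sgRNA2, against 11.56, 11.49, 11.15 and 11.30 in control, a range of 0.34. Numbers 3 and 4 were the lower ones in all 3 groups in both genes. UQCRC2 ran the other way, with 10.81, 11.02, 11.07 and 11.18 in sgRNA1 and 10.90, 10.98, 11.22 and 11.21 in sgRNA2, against 10.96, 11.06, 11.18 and 11.26 in control, a range of 0.33. The smallest ranges were 0.024 for NDUFB1, 0.046 for NDUFC1, a small subunit of complex I, and 0.057 for NDUFA13.

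ATP5ME is on the reverse strand of chromosome 4 between 672436 and 674338 (GRCh38, GENCODE 29), and 61.6% of its exon bases are also exon of MYL5 on the other strand. The strand setting of the counting is not given in the sources used here, so that reads of this pair may not be told apart. Its promoter is shown as the one of the nuclear member with the largest range, at chr4:674227-674526 on the reverse strand (RefSeq, GRCh38.p14), with its 4 matches of the NRF1 and ETS motifs in capitals on either strand.

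ATP5ME promoter: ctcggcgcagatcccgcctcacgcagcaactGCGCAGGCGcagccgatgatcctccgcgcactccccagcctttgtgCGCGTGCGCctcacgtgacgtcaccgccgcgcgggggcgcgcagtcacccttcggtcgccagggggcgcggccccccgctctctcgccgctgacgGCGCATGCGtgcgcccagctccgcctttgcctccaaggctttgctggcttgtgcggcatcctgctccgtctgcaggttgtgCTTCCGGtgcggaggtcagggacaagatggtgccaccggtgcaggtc

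Per base of annotated transcript, the mitochondrially encoded genes had the highest levels of the set. On the scale of rlog minus log2 of transcript length in kilobases, they had levels between 13.08 (MT-ATP8) and 15.35 (MT-CO1) with a median of 14.22. The nuclear members had levels between 3.55 (NDUFA9) and 13.07 (ATP5F1B) with a median of 9.46, and low values can reflect a long annotated transcript. UQCRHL, with a mean of 5.92, is a close copy of UQCRH and may have taken part of its reads. Of the 84 nuclear members, ATP5ME had the largest share of exon bases overlapped by another gene. The members lie on 22 nuclear chromosomes besides mitochondrial DNA, and 42 of the 84 are on the forward strand.

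Other genes that serve the pathway were read from wider lists. None was called in limma for both guides, with or without the block, among 4 subunits of complex II (median log2 fold change -0.0043), 37 assembly factors of complexes II to V (0.00080), 11 other assembly factors of complex I (-0.036), 13 genes of coenzyme Q synthesis (-0.0097), 31 genes that express or maintain mitochondrial DNA (-0.0064) and 14 nuclear regulators of mitochondrial genes (-0.014). Without the block 2 of the 109 different genes in these lists, chosen after their values were seen, had an unadjusted p under 0.05, against 7.48% of all genes: COX14, an assembly factor of complex IV (log2 fold change 0.12, adjusted p = 0.65), and GABPB2, a subunit of an ETS-family regulator (-0.13, adjusted p = 0.66). These lists share single genes, such as COA1. The number F-test called 0 of 4, 12 of 37, 1 of 11, 6 of 13, 18 of 31 and 9 of 14 of them in that order, against 51.8% of all genes. For both guides 0.1% of all genes were called without the block and 593 of 10982 with it.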

How the data were processed

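Per the labels and the submitters' processing notes, poly(A)-selected RNA (NEBNext Ultra kit) was sequenced with paired reads on a NextSeq, aligned with STAR 2.7.5a to GRCh38, handled with Picard 2.9.4 and SAMtools and counted with HTSeq. Duplicate reads were removed, which weighs most on highly abundant mRNAs such as those of mitochondrial DNA. The authors deposited log2 values (DESeq2 rlog) for 19755 protein-coding genes, whether blind to the groups is not stated. Deposited fold changes, p-values and z-scores were left out, and read counts were not used here, so that depth is unknown.

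Genes with a mean rlog of at least 4 were tested with limma 3.58.1 (trend, R 4.3.3). P-values were two-sided and adjusted over 10982 genes by Benjamini-Hochberg, at a threshold of 0.05. Both guides together were set against control, and single guides in a 3-group model. The script was tested on simulated data. The replicate number was a block in a second fit, because same-numbered libraries deviated together (r 0.38 to 0.78 in 12 pairs, -0.74 to 0.75 in others). The best match of a library in another group bore its own number in 19 of 24 cases. Named were all mitochondrially encoded genes, the 4 largest changes and the 4 smallest blocked p in each direction, the 3 largest and 3 smallest ranges over the numbers, and paired isoforms. Other genes named were chosen after their values were seen. Members and lists were chosen with earlier results of these data known. Alternatives were the filter, scaling, trend, block, number pairs and leaving out each library. Promoters came from RefSeq. Figures used Python with matplotlib. The value of 1 marker gene is not reported here.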

Additional observations from a re-analysis of the deposited data

Results flagged for a closer look

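A total of 105 sets of 4 libraries were searched for a library far from the other 3 of its group, and 3 were found, where chance gives about 5% of sets. MT-CO1 was at 15.81 in sgRNA1 number 4 and at 15.95 to 15.97 in the other sgRNA1 libraries. The mean of the mitochondrially encoded genes minus that of the nuclear genes was 4.12 in the same library and 4.53 to 4.61 in the others of its group. COX6B1, a subunit of complex IV, was at 11.02 in sgRNA2 number 1 and at 11.26 to 11.30 in the other sgRNA2 libraries.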

How the results depend on the processing

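The replicate block raised the nuclear members called for both guides, and for sgRNA1, to 2 each, against 0 without it, and it changed no other count of members called in the group comparisons. In the blocked fit of both guides the nuclear count was 1 without the filter, with quantile scaling or without the trend, 4 with numbers 1 and 2 alone (ATP5F1A, COX7A2, COX7C and NDUFA5), 0 with numbers 3 and 4 alone, and 0 to 4 when 1 library was left out. It was 0 without control number 1 or 3, and 4 without sgRNA2 number 3 (COX4I1 and COX7A2 joined). For mitochondrially encoded genes it was 3 with quantile scaling (MT-CO2, MT-CYB and MT-ND3) and 0 to 1 when 1 library was left out (MT-ND4L without sgRNA2 number 3). ATP5F1A was called in 16 of 19 alternatives of the blocked fit. The share of all genes called in each alternative is not given here. These alternatives to the blocked fit were chosen after seeing the data, and causes were not tested.

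Of 638 log2 fold changes of 32 genes under alternatives, 596 kept sign and side of the threshold, 2 became called and 40 changed sign without a call, in 11 genes. With quantile scaling MT-ND6 was 0.027, MT-ATP6 0.036, MT-ATP8 0.0047 and COX6B1 0.00092. With numbers 1 and 2 alone MT-ND2 was -0.042, MT-ATP8 0.12, ATP5ME 0.0090 and NDUFA4 -0.037, and with numbers 3 and 4 alone MT-ND6 was 0.0031 and COX6A1 0.037. With 1 library left out, values ran between -0.030 and 0.035 for COX6A1, -0.061 and 0.027 for COX6B1, -0.10 and 0.0025 for ATP5ME, -0.020 and 0.073 for NDUFA4, -0.026 and 0.15 for MT-ND2, -0.083 and 0.12 for MT-ND5, -0.14 and 0.081 for MT-ND6, -0.0048 and 0.12 for MT-CO2, -0.020 and 0.096 for MT-CO3, -0.13 and 0.060 for MT-ATP6, and -0.30 and 0.12 for MT-ATP8. The nuclear count of the number F-test was 28 to 61 and the mitochondrially encoded count 12 to 13 over its alternatives. Depth is unknown, so that counting error has no interval here.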
